A study of Mus musculus with 12 samples.

Results

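Mitotic G2/M genes were followed across 4 Foxo1 genotypes of a mouse lymphoma cell line. The set was a list of 46 genes that act in G2 and mitosis, found on the array by the gene symbol of the platform annotation, with 1 probe set per gene (the one with the highest mean over the 12 arrays). Of the 46, 45 had a probe set. All 45 lay above the median of each of the 12 arrays, so all were among the 11458 genes tested, of 18194 with a probe set. Ccnb1, which encodes cyclin B1, had no probe set annotated to it alone and was not analysed here.

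RNA came from BL#19, a murine Burkitt lymphoma (BL) line edited with CRISPR/Cas9, on 12 Affymetrix arrays with 3 per genotype. Foxo1 is a forkhead transcription factor that AKT phosphorylation excludes from the nucleus, and the line had a wild-type allele (wt) and a mutant allele with the substitution T24P (mt). The genotypes were wt-/mt-, with knockout of both alleles (arrays 10 to 12), wt-/mt+, with the mutant allele alone (arrays 4 to 6), wt+/mt-, with the wild-type allele alone (arrays 7 to 9), and wt+/mt+, with both alleles (arrays 1 to 3). All 4 come from the same edited line, and every comparison is therefore between derivatives of 1 lymphoma. Most labels name the lymphoma line, while 1 field calls the samples germinal center B cells. No label tells if those 3 arrays were separate clones or cultures. A genotype may therefore be 1 clone, and the p-values reflect the spread between arrays alone, perhaps of technical origin.

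Cells enter mitosis when cyclin-bound Cdk1 is activated by Cdc25 phosphatases and Plk1, and leave it when the anaphase-promoting complex, switched on by Cdc20, marks securin and the cyclins for destruction. Between those steps, kinesins and kinetochores attach the chromosomes to the spindle, the Bub1, Bub1b and Ttk checkpoint delays anaphase, and the chromosomal passenger complex corrects wrong attachments and then guides cytokinesis. Most of these genes are transcribed late in the cell cycle. In other mammalian cells the MuvB complex, with Mybl2 and Foxm1, acts at a promoter element called the cell cycle genes homology region (CHR), while NF-Y binds nearby CCAAT boxes. In bulk RNA, a larger share of cells in G2 or mitosis and more RNA per such cell cannot be told apart.

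Promoter windows of members that behaved differently are shown first, since CHR and CCAAT motifs are what most of the set shares apart from the function it was listed for. Sequences are from RefSeq, build GRCm38.p6, and run 5′ to 3′ on the gene's strand from 250 bases before the annotated start through the first 50 bases transcribed. Capitals mark a CHR motif, TTTGAA or TTCGAA, or a CCAAT box, each on either strand. Plk1, a mitotic kinase, and Cdk1 rose in wt-/mt- cells, and Mybl2 rose with neither motif in its window. Cdc25b and Racgap1 were lower in wt-/mt- than in wt-/mt+. The windows lie at chr7:122159185-122159484 (plus strand), chr10:69352863-69353162 (minus strand), chr2:163054385-163054684 (plus strand), chr2:131186698-131186997 (plus strand) and chr15:99651607-99651906 (minus strand).
Plk1: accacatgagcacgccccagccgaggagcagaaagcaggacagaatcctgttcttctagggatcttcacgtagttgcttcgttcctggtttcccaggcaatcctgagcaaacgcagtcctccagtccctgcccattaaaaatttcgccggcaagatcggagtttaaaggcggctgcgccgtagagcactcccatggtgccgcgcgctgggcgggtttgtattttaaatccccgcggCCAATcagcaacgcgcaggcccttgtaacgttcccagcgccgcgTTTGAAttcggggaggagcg
Cdk1: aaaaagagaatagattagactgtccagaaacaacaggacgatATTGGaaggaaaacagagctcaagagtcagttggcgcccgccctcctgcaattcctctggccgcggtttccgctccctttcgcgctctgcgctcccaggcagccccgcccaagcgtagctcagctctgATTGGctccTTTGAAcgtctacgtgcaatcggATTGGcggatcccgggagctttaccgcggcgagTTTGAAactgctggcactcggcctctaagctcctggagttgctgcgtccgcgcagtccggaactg
Mybl2: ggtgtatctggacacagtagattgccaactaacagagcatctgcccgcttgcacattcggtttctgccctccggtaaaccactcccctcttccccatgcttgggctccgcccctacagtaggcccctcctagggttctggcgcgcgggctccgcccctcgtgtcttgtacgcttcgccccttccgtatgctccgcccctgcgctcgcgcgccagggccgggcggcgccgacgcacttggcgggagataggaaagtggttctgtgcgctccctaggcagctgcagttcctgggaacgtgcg
Cdc25b: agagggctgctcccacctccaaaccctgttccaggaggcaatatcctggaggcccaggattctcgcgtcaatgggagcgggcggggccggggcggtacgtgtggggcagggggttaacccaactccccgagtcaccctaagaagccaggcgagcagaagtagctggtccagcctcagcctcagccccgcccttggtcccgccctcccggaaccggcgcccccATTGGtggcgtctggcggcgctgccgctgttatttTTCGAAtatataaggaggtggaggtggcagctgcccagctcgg
Racgap1: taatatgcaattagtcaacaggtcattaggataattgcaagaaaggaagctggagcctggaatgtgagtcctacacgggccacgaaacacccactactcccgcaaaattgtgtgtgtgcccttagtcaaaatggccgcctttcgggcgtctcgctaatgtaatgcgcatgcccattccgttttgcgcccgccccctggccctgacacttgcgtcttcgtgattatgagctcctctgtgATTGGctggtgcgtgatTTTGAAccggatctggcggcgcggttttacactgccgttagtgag

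Windows were found for 38 of the 46 genes, 40 windows in all, since Ect2 and Prc1 had several starts. A CHR motif lay in 75.0% of the members' windows, against 13.7% of 11831 windows of the other tested genes. A CCAAT box lay in 75.0% of the members' windows, against 37.5% of the windows of the other tested genes, and both motifs together in 65.0%, against 5.41%. With 1 window per gene there were 38 CHR sites, of which 1 shared bases with a CCAAT box, and 27 of the 38 began within 50 bases of the start. Plk1 has its CHR 30 bases after the start and its CCAAT box 14 bases before it, written as 30 and -14. Cdk1 has CHR motifs at -71 and -15, with CCAAT boxes at -208, -80 and -48. Cdc25b has a CHR at 7 and a CCAAT box at -28, and Racgap1 a CHR at 5 and a CCAAT box at -12. A match describes these letters only, and the binding of a factor was not measured.

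**Figure D1:**
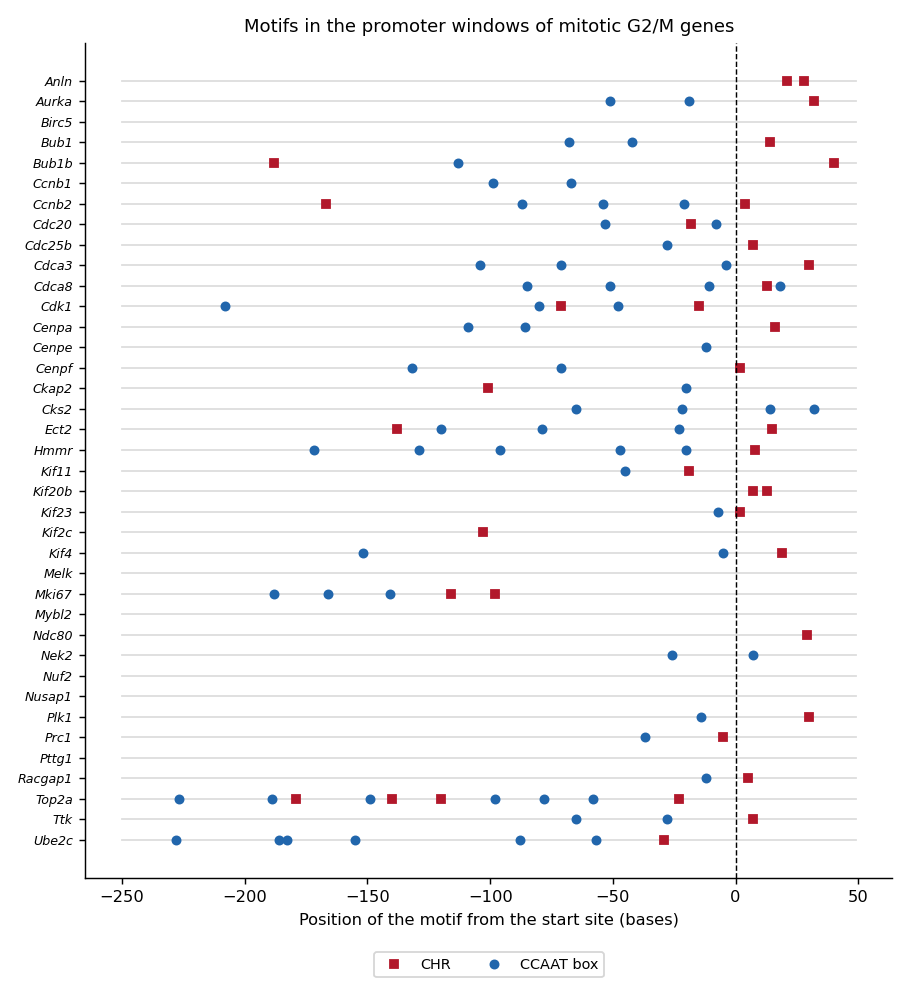
Positions of CHR motifs (red squares) and CCAAT boxes (blue circles) in the promoter windows of 38 mitotic G2/M genes, 1 window per gene, in bases from the annotated start (dashed line). Most CHR motifs lie close to the start, 27 of 38 within 50 bases, with the CCAAT boxes mostly before them. Birc5, Melk, Mybl2, Nuf2, Nusap1 and Pttg1 have neither motif in the window.

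The arrays were read against the labels first. Foxo1 had 10.23, 9.39 and 10.34 (log2 level) on the wt-/mt- arrays. It had 11.57, 11.16 and 11.64 on the wt-/mt+ arrays, 12.10, 11.92 and 11.59 on the wt+/mt- arrays, and 11.56, 11.63 and 11.72 on the wt+/mt+ arrays. It was lower in wt-/mt- than in wt+/mt+ by a log2 change of -1.65 (SE 0.23, limma adjusted p = 0.00122). The arrays with 1 allele lay near those with both, so this transcript does not check the labels of single losses. Where the edits lie relative to the probes is not given in the labels. Array medians lay between 6.08 and 6.25. The actin 3' to 5' ratio, a sign of RNA or labelling quality, was 2.17 and 1.71 (log2) on wt+/mt- arrays 7 and 8, and between 1.06 and 1.29 on the other 10. The spiked bioD transcript lay between 12.97 and 13.52 on the mt- arrays and between 13.83 and 14.04 on the mt+ arrays. The spiked lys transcript lay between 7.30 and 8.18 on the mt- arrays and between 5.77 and 7.26 on the mt+ arrays. No fit allowed for the spikes. In any comparison of mt- with mt+ arrays, what goes with the spikes and what goes with the mutant allele cannot be told apart. The part of the array medians and the actin ratio was not tested, except where a fit that allows for them is given.

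The members moved together over the 12 arrays and most stood highest in wt-/mt-. Relative to each member's wt+/mt+ mean, their median was 0.89, 0.53 and 0.98 (log2 difference) on the 3 wt-/mt- arrays, 0.47, 0.29 and 0.68 on the wt-/mt+ arrays, -0.27, -0.33 and 0.50 on the wt+/mt- arrays, and 0.21, -0.05 and -0.15 on the wt+/mt+ arrays. The wt-/mt- genotype had the highest mean of the 4 in 37 members and wt-/mt+ in 7. In 36 members the order was wt-/mt-, then wt-/mt+, then both genotypes with the wild-type allele. The lowest wt-/mt- array, at 0.53, lay within the range of the wt-/mt+ arrays, and wt+/mt- array 9, at 0.50, also lay within that range.

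**Figure D2:**
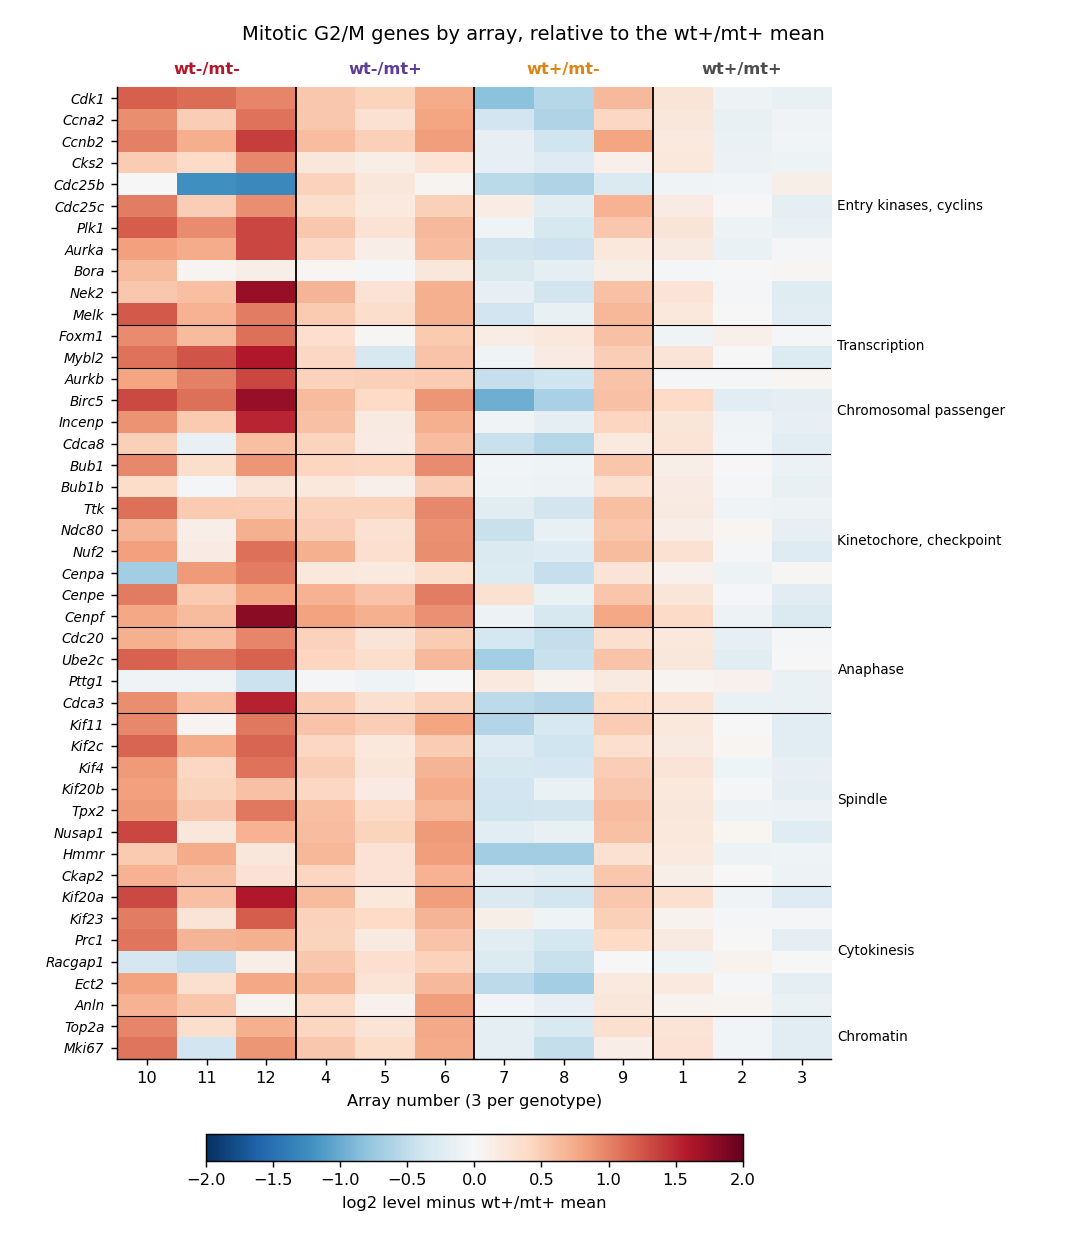
Level of each of 45 mitotic G2/M genes on each array as log2 difference from its wt+/mt+ mean, grouped by role, with genotypes from wt-/mt- on the left to wt+/mt+ on the right. Red is higher and blue lower. The wt-/mt- arrays are red for most genes, and Cdc25b, Racgap1 and Pttg1 do not follow.

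Arrays of 1 genotype also differed in the level of the whole set. In wt+/mt-, array 9 was the highest of the 3 in 44 of 45 members, while it was the highest in 40.2% of all genes. In wt-/mt+, array 6 was highest in 41 members and array 5 lowest in 42. Array 1 was highest in 39 members of wt+/mt+, and array 11 lowest in 34 of wt-/mt-. The median SD of the members was 0.31 for wt-/mt-, 0.20 for wt-/mt+, 0.44 for wt+/mt- and 0.19 for wt+/mt+, against 0.26, 0.11, 0.13 and 0.095 over all tested genes in the same genotypes. The members thus varied most between replicates where arrays 7 and 8 had the high actin ratios. Since members shared these shifts, they are not independent of each other.

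**Figure D3:**
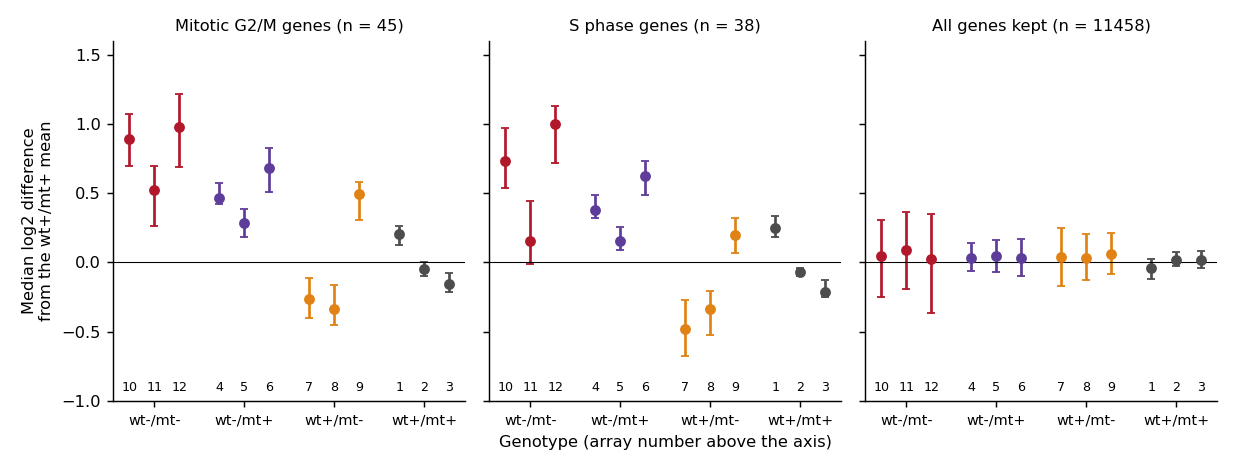
Median log2 difference from the wt+/mt+ mean on each array for 45 mitotic G2/M genes, 38 S phase genes and all 11458 tested genes, with quartiles as bars. The mitotic genes lie between 0.53 and 0.98 on the wt-/mt- arrays, and wt+/mt- array 9 stands apart from arrays 7 and 8, while the median of all genes stays near 0.

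The first comparison asks what differs when neither Foxo1 allele remains. In wt-/mt- against wt+/mt+, 26 of 45 members rose and 0 fell, where 12.2% of all tested genes rose and 9.94% fell. A gene was called when limma's p, adjusted over all tested genes by Benjamini-Hochberg, was under 0.05, and 19 members were not called. With each array centred on its median 20 members rose and 1, Cdc25b, fell (-0.92), where 7.68% of all genes rose and 12.9% fell. The median change was 0.78 (log2, 1.72-fold), against 0.05 over all genes. The arrays of these genotypes did not overlap, with wt-/mt- higher, in 35 members and in 22.9% of all genes. The change was positive in 42 members.

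Among the kinases, cyclins and regulators of mitotic entry, 8 of 11 rose. Plk1, which activates Cdk1 and builds the spindle poles, had 10.76, 10.49 and 10.89 (log2 level) in wt-/mt- and 9.81, 9.45 and 9.39 in wt+/mt+, a change of 1.16 (SE 0.21, limma adjusted p = 0.00407). Cdk1, the kinase that starts mitosis, had 12.01, 11.95 and 11.80 in wt-/mt- and 11.09, 10.72 and 10.67 in wt+/mt+, a change of 1.10 (SE 0.30, adjusted p = 0.026). Every wt-/mt- array stood above every wt+/mt+ array for both kinases. The cyclin genes Ccnb2 and Ccna2 rose by 1.04 and 0.83, and Aurka, a kinase of the spindle poles, by 0.96. Melk, a kinase induced in dividing cells, rose by 0.98, Cdc25c, a phosphatase that activates Cdk1, by 0.81, and Cks2, a small Cdk-binding protein, by 0.61. Nek2, a centrosomal kinase, had 0.96 (SE 0.33, adjusted p = 0.0558), Bora, an activator of Aurora A and Plk1, had 0.27, and Cdc25b had -0.84 (SE 0.28, adjusted p = 0.0526), none of them called.

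Both transcription factors of the set rose. Foxm1, a forkhead factor that drives mitotic genes, had 8.32, 8.00 and 8.47 (log2 level) in wt-/mt- and 7.30, 7.48 and 7.33 in wt+/mt+, a change of 0.89 (SE 0.17, limma adjusted p = 0.00462). Its 3 brighter probe sets gave 0.89, 1.01 and 1.23. Mybl2, the B-Myb partner of MuvB, had 8.79, 8.96 and 9.31 in wt-/mt- and 7.97, 7.72 and 7.43 in wt+/mt+, a change of 1.31 (SE 0.25, adjusted p = 0.00492). The wt-/mt- arrays lay above all wt+/mt+ arrays in both genes, although Foxm1 was the dimmest member, with a wt+/mt+ mean of 7.37 where the others reached 13.21.

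Of the 4 chromosomal passenger genes 3 rose. Birc5, which encodes survivin, had 11.49, 11.26 and 11.91 in wt-/mt- and 10.56, 9.95 and 9.98 in wt+/mt+, a change of 1.39 (SE 0.35, limma adjusted p = 0.0182) and the largest of the set. The kinase gene Aurkb rose by 1.04 and the scaffold gene Incenp by 0.98, while Cdca8, which encodes borealin, had 0.31 (adjusted p = 0.373). Among the 4 genes of anaphase, Ube2c, the E2 enzyme of the anaphase-promoting complex, rose by 1.14, Cdca3, an adaptor that triggers mitotic entry, by 1.03, and Cdc20 by 0.77. Pttg1, which encodes securin, had 13.14, 13.14 and 12.79 in wt-/mt- and 13.26, 13.30 and 13.08 in wt+/mt+ (change -0.19, adjusted p = 0.242), with overlapping arrays.

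Of 8 kinetochore and checkpoint genes 3 rose. Cenpf rose by 1.07, the kinesin Cenpe by 0.79 and the checkpoint kinase Bub1 by 0.73. Its partner Bub1b had 0.20, the checkpoint kinase Ttk 0.71, the microtubule-binding pair Ndc80 and Nuf2 0.51 and 0.69, and the centromeric histone Cenpa 0.40, none of them called. Cenpa had 10.06, 11.62 and 11.78 in wt-/mt- and 10.84, 10.66 and 10.77 in wt+/mt+, with array 10 below every wt+/mt+ array and the other two above. Bright probe sets of Cenpa and Cenpf disagreed in sign, from -0.21 to 0.40 and from -0.18 to 1.07.

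Of 8 kinesin and spindle genes 3 rose. Kif2c, a kinesin that removes tubulin from microtubule ends, had 10.83, 10.40 and 10.83 in wt-/mt- and 9.84, 9.71 and 9.45 in wt+/mt+, a change of 1.02 (SE 0.20, limma adjusted p = 0.0058). Its arrays did not overlap. Tpx2, which activates Aurora A on the spindle, rose by 0.82, and the chromokinesin Kif4 by 0.78. The spindle motor Kif11 (0.69), Kif20b (0.62) and the microtubule binders Nusap1 (0.75), Hmmr (0.50) and Ckap2 (0.53) were not called. Of 6 cytokinesis genes, the kinesins Kif20a and Kif23 rose by 1.18 and 0.83 and the bundling protein gene Prc1 by 0.82. Ect2, an activator of RhoA, had 0.63, the actin binder Anln 0.44 and Racgap1 -0.23, none called. Bright probe sets of Anln disagreed in sign, from -0.02 to 0.44. Those of Hmmr ran from 0.04 to 0.74, of Kif11 from 0.07 to 0.69 and of Tpx2 from 0.13 to 0.82. Top2a, a DNA topoisomerase, rose by 0.68, and Mki67, the Ki-67 gene, had 0.52 (adjusted p = 0.262).

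**Figure D4:**
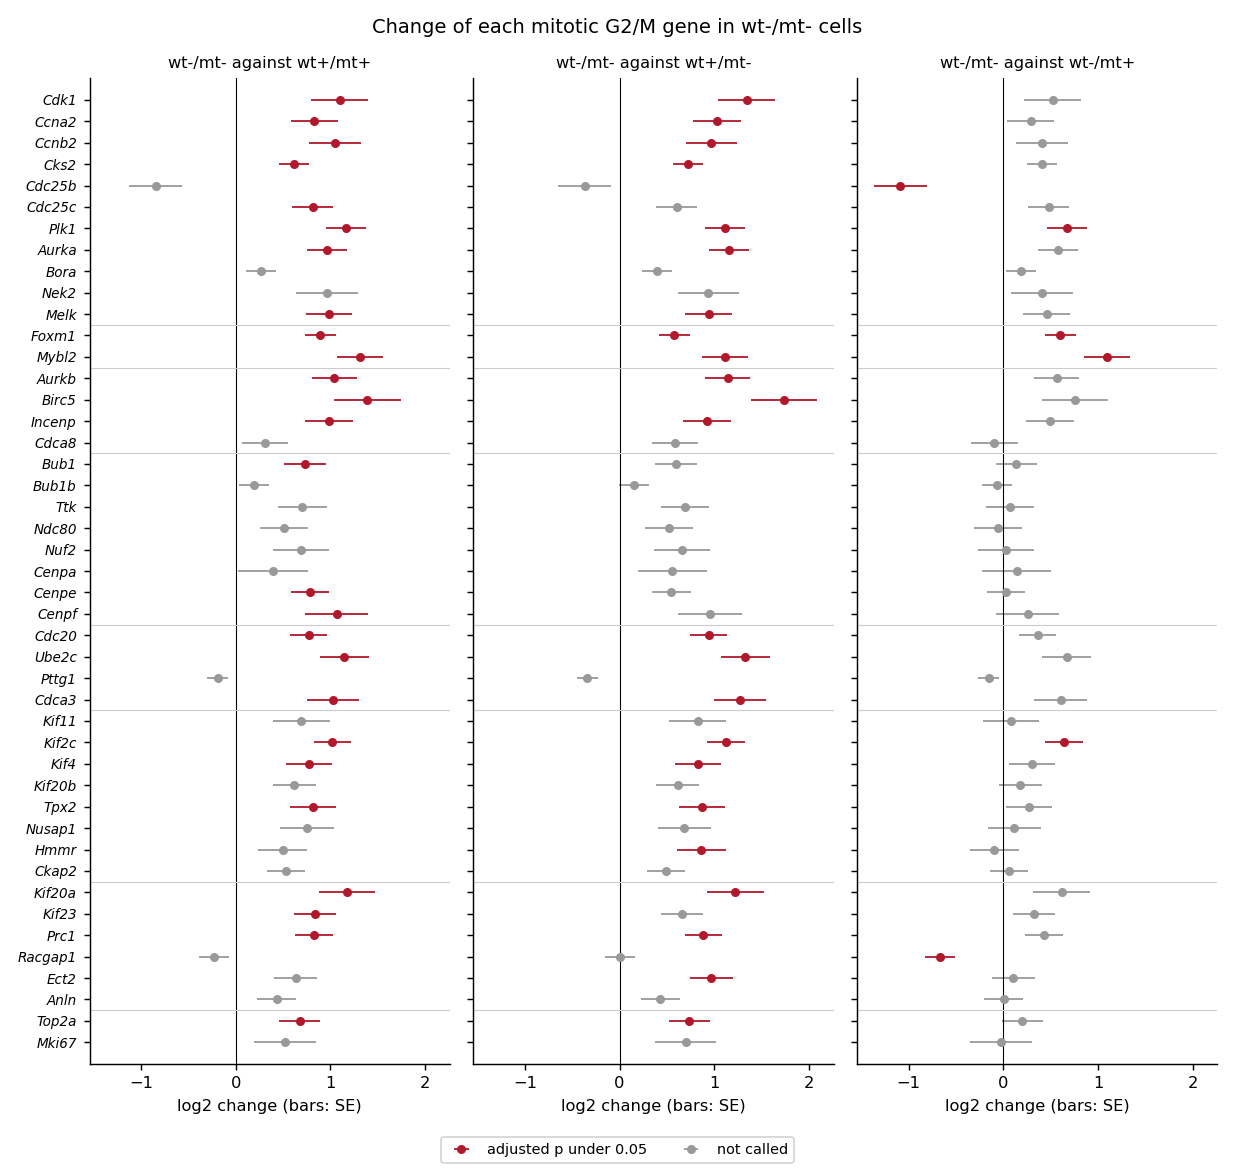
Log2 change of each member in wt-/mt- against wt+/mt+ (left), wt+/mt- (middle) and wt-/mt+ (right), with limma's SE as bars and called genes in red. The 3 panels share the wt-/mt- arrays. In the left panel 26 members are red and to the right of 0, in the right panel 4, with Cdc25b and Racgap1 red to the left of 0.

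The number of calls depended on the fit. The wt-/mt- arrays spread more than the others over all genes, and with 1 weight per genotype 1 member was called, Foxm1 (adjusted p = 0.0444), where 2.76% of all genes rose. Without wt+/mt+ array 2 or array 3, 6 and 7 members rose, where 5.76% and 5.93% of all genes did, and Plk1, Aurka, Foxm1, Mybl2, Aurkb and Kif2c rose in both. Foxm1 was called under all 21 other fits, and Plk1, Mybl2 and Kif2c under 20 of 21. Without wt+/mt- arrays 7 and 8, which only enter through the shared spread, 29 were called. With the mean of all probe sets of a gene 19 were called. Cdca3 (0.19), Cenpf (0.39), Kif23 (0.40) and Tpx2 (0.48) lost their calls there with a smaller change, as did Bub1, Cenpe and Top2a. Aurka (0.50) and Kif2c (0.67) kept theirs. The counts without arrays 7 and 8 and with this mean have no share of all genes beside them. They therefore do not single out the members. Top2a was called in 6 of 21 other fits, Cenpf in 8, Kif4 in 9, Bub1 and Tpx2 in 11 each, Ccna2 in 12, and Cdca3 and Kif23 in 14 each. Cdca3 and Top2a also lost their calls with genes centred per chromosome.

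The next comparison asks what loss of wild-type Foxo1 does where no mutant allele is present. Its count of called members was lower without array 7 or array 8. In wt-/mt- against wt+/mt-, 23 of 45 members rose and 0 fell, where 6.35% of all genes rose and 8.22% fell. The median change was 0.82, against -0.01 over all genes. Birc5 had 11.49, 11.26 and 11.91 in wt-/mt- and 9.19, 9.51 and 10.75 in wt+/mt-, a change of 1.74 (SE 0.35, limma adjusted p = 0.00986). Cdk1 rose by 1.34, Ube2c by 1.33, Cdca3 by 1.27, Kif20a by 1.22 and Aurka by 1.16. With the mean of all probe sets Cdca3 had 0.51 and was not called, and Aurka had 0.53 and was. Foxm1, at 0.58 (limma adjusted p = 0.0409), was called in only 7 of 21 other fits. Ccnb2 was called in 6, Kif4 and Tpx2 in 5 each, Hmmr in 3 and Top2a in 2. By role, the rises were in 7 of 11 entry genes, 2 of 2 transcription factors, 3 of 4 passenger genes, 3 of 4 anaphase genes, 4 of 8 spindle genes, 3 of 6 cytokinesis genes and 1 of 2 chromatin genes, with 0 of 8 at the kinetochore and checkpoint. Arrays did not overlap in 19 members with wt-/mt- higher (11.8% of all genes) and in 1, Pttg1, with wt-/mt- lower (13.8%).

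Within wt+/mt-, array 9 was the highest of the 3 arrays in every member but 1. Without both arrays 7 and 8, 0 members were called, the lowest adjusted p was 0.24 and the median change was 0.30, where 0.244% of all genes rose. With the actin ratio as a covariate 0 members were called and the median was 0.44, where 0.585% of all genes rose. With 1 weight per genotype 0 members were called, where 0.829% rose. Without array 7 or 8 alone, 6 and 5 were called, without array 12, 14, and without array 9, 36. No share of all genes stands beside these counts, so they do not single out the members. The actin ratio and the level of the set thus moved together within wt+/mt-, and their parts cannot be told apart with 3 arrays.

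Where no wild-type allele was present, loss of mutant Foxo1 gave calls in both directions. In wt-/mt- against wt-/mt+, 4 members rose and 2 fell, where 9.75% of all genes rose and 11.1% fell, so the share of members called was near or below that of all genes. With each array centred on its median 2 members rose and 2 fell, with Plk1 and Kif2c no longer called, where 7.46% of all genes rose and 12.9% fell. The median change was 0.27, against 0.01 over all genes, and 37 of 45 changes were positive. Mybl2 had 8.79, 8.96 and 9.31 in wt-/mt- and 8.12, 7.38 and 8.28 in wt-/mt+, a change of 1.09 (SE 0.25, limma adjusted p = 0.0116). Plk1 rose by 0.67, Kif2c by 0.64 and Foxm1 by 0.60 (SE 0.17, adjusted p = 0.027). For Foxm1 the lowest wt-/mt- array, at 8.00, lay just above the highest wt-/mt+ array, at 7.89. These 4 genes were the members called in all 3 comparisons of wt-/mt-, which share the same 3 arrays. In 2 of them 17 members were called, in 1 of them 9, and in 0 of them 15. These counts were not made over all genes, so whether they are unusual cannot be read from them.

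The members that fell were Cdc25b and Racgap1. Cdc25b, the phosphatase that first activates Cdk1 at the centrosome, had 10.62, 9.40 and 9.34 in wt-/mt- and 11.09, 10.85 and 10.69 in wt-/mt+, a change of -1.09 (SE 0.28, limma adjusted p = 0.0203). Arrays 11 and 12 stood well below the other 10, and array 10 lay just under the wt-/mt+ range. Racgap1, the GTPase-activating part of centralspindlin, had 10.14, 10.01 and 10.59 in wt-/mt- and 11.02, 10.81 and 10.94 in wt-/mt+, a change of -0.67 (SE 0.16, adjusted p = 0.014). Its other bright probe set gave -0.51, and with the mean of all its probe sets the change was -0.36 and not called. For both genes wt-/mt+ had the highest mean of the 4 genotypes, at 10.88 ± 0.20 and 10.92 ± 0.10 (SD, n = 3). With 1 weight per genotype Cdc25b was the only member called (-1.09, adjusted p = 0.0319), where 5.27% of all genes fell. Over 21 other fits, Mybl2 was called in 19, Cdc25b in 18, Racgap1 in 17, Foxm1 in 15, and Plk1 and Kif2c in 8 each. Without wt-/mt+ array 4, 5 or wt-/mt- array 12 the counts were 1, 2 and 3, and without array 9 or 11 they were 11 and 10. These counts have no share of all genes beside them, so they do not single out the members.

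**Figure D5:**
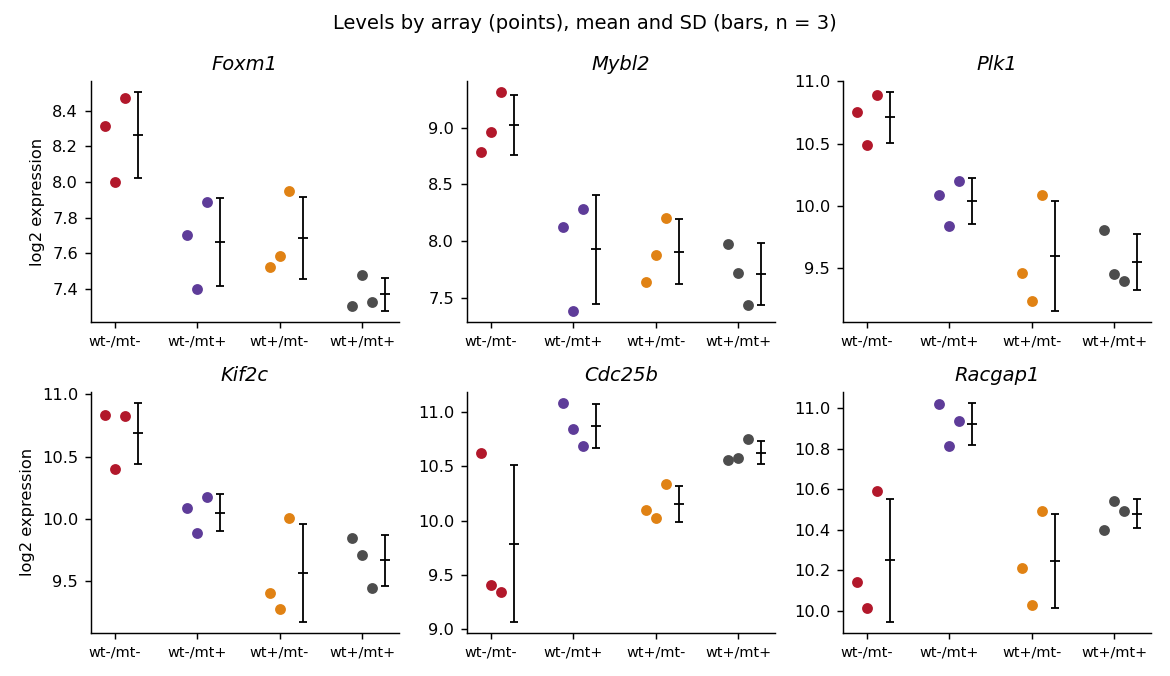
Log2 level on each array (points) with mean and SD (n = 3) for the members called in all 3 comparisons of wt-/mt- (Foxm1, Mybl2, Plk1, Kif2c) and for those that fell against wt-/mt+ (Cdc25b, Racgap1). Axes do not start at 0. The first 4 genes are highest in wt-/mt-, and the last pair is highest in wt-/mt+.

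Loss of 1 allele while the other was present gave no call among the members. In wt-/mt+ against wt+/mt+, 0 members and 0.0% of all genes were called (limma). Of 45 changes 44 were positive, with a median of 0.48, against 0.04 over all genes. An unadjusted limma p under 0.05 was found for 16 members and for 412 of all 11458 genes. Arrays did not overlap, with wt-/mt+ higher, in 30 members, where 14.8% of all genes were so. Cenpe had 10.95, 10.82 and 11.29 in wt-/mt+ and 10.50, 10.22 and 10.05 in wt+/mt+ (0.76, SE 0.20, unadjusted p = 0.0032), the smallest p of the set. Cenpf, at 0.81, had the largest change. In a fit on these genotypes alone 1 member was called, Aurkb (0.48, SE 0.07, adjusted p = 0.0381).

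In wt+/mt- against wt+/mt+, 0 members were called, where 0.183% of all genes were. An unadjusted limma p under 0.05 was found for 0 members and for 1704 of all 11458 genes. The median change was -0.05, with 20 changes positive, and became 0.50 without arrays 7 and 8, with array 9 as the only wt+/mt- array. In wt-/mt+ against wt+/mt-, which compares the mutant allele alone with the wild-type allele alone, 0 members were called, where 0.0873% of all genes were. There, 22 members and 1881 of all 11458 genes had an unadjusted limma p under 0.05. The median change there was 0.57, which became 0.03 without arrays 7 and 8, again with array 9 alone for wt+/mt-. With 1 weight per genotype, 4 members rose, Hmmr by 0.96, Ect2 by 0.86, Cdc25b by 0.72 and Racgap1 by 0.68, where 2.94% of all genes rose. Without array 9, 9 members were called, and without array 10 or 12, 1 each. No share of all genes stands beside these counts from left-out arrays, so they do not single out the members.

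The interaction asks whether losing both alleles differs from the sum of the single losses. It called 0 members, where 3.14% of all genes were called, and the members' median was 0.30. An unadjusted limma p under 0.05 was found for 6 of 45 members and for 2104 of all 11458 genes. The members' share was thus not above that of all genes. Birc5 had the largest value, 1.10 (adjusted p = 0.27), and Cdc25b the lowest, -0.62. Without array 9, 4 members were called (Cdk1, Aurkb, Birc5 and Ube2c), and without array 10, Cdc25b was. Over all 4 genotypes the F test called 21 members, where 19.2% of all genes were called, with Kif2c (adjusted p = 0.00959) and Plk1 (adjusted p = 0.00988) lowest. With 1 weight per genotype it called 10 (13.4% of all genes), and with the actin ratio as a covariate 8 (13.0%). Leaving out arrays 2, 3, 4, 5, 6, 7 or 8 in turn gave between 8 and 12, and leaving out array 9 gave 34. For the interaction and the F test, counts with an array left out have no share of all genes beside them. They therefore do not single out the members.

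Most members followed 1 profile over the 12 arrays, given here as Pearson's r with the mean of the other members, a description over arrays that share the 4 genotypes. Kif4, Ccna2 and Tpx2 lay closest to it, each with r = 0.99. Pttg1 (-0.57), Cdc25b (-0.15), Racgap1 (0.31) and Cenpa (0.46) lay farthest. Outside the set, the genes most like the profile were Dbf4, a regulator of the Cdc7 kinase (r = 0.99), and Cenpi, Plk4, Sgo1, Traip, Stmn1, Kif18b, Gmnn, Aspm and Rad54l (each r = 0.98). The CHR motif lay in 14 of 19 windowed members that rose in wt-/mt- against wt+/mt+ and in 14 of 18 not called. The median change of members with a CHR motif was 0.70 (n = 28) and of those without 0.79 (n = 9).

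Other genes of the same processes were read from lists, beside the 12.2% of all genes that rose and 9.94% that fell in this comparison. In wt-/mt- against wt+/mt+, 17 of 34 further kinetochore and centromere genes rose and 1 fell (median 0.69), among them Zwilch, part of the complex that recruits dynein to kinetochores, by 1.38 (SE 0.31, limma adjusted p = 0.0107), Spc24 by 1.16, Cenpk by 1.11 and Cenpi by 0.96. Of 33 further kinesin, spindle and cytokinesis genes 18 rose and 0 fell (median 0.66). Tubg1, which encodes gamma-tubulin of the spindle poles, had 9.81, 10.61 and 10.03 in wt-/mt- and 8.99, 8.92 and 8.86 in wt+/mt+ (1.23, SE 0.17, adjusted p = 0.00105), and its groups did not overlap. Fam83d, a spindle protein, rose by 1.01 and was called in all 21 other fits. Stmn1 rose by 1.04 but was called in 7 of 21, and Tubb4b rose by 0.94 but had 0.23 and no call with the mean of all its probe sets. In the S phase list 13 of 38 rose and 0 fell (median 0.64), led by Uhrf1 (1.44), Tk1 (1.35), Mcm10 (1.07) and Mcm2 (1.04). Spc24 was called in 12 of 21 other fits and Mcm10 in 10, with 0.49 and no call from the mean of all its probe sets.

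Larger complexes and regulators were read in the same comparison. Of 20 condensin and cohesin genes 5 rose (median 0.26), among them Espl1, the separase gene, by 1.08, Ncapd2 by 0.98, Lmnb1, a lamin, by 0.69 and Smc1a by 0.45, called in 9 of 21 other fits, whose sign turned (-0.25) with the mean of all its probe sets. Of 15 subunits and enzymes of the anaphase-promoting complex 5 rose (median 0.12), with Ube2s at 0.74, Anapc11 at 0.65, Cdc23 at 0.59 and Cdc27 at 0.49. With the mean of all probe sets Ube2s had 0.35 and Cdc27 0.29, both still called, and Anapc11 was called in 10 of 21 other fits. Of 18 MuvB, DREAM and E2F genes 3 rose (median 0.25), a share near that of all genes. They were E2f7 by 1.12, called in 7 of 21 other fits, E2f1 by 0.99 and E2f4 by 0.53. Among 17 regulators of mitotic kinases and phosphatases 5 rose and 3 fell. Ccnf rose by 1.10 and Plk4, the centriole kinase, by 0.76, with no call from the mean of all its probe sets. Ensa, an inhibitor of the phosphatase PP2A in mitosis, fell by 1.85, and Lats2, a Hippo pathway kinase, fell by 0.92. With the mean of all its probe sets Lats2 had -0.15 and was not called.

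Of 15 genes that restrain the cell cycle 4 fell and 1 rose (median -0.28). The antiproliferative genes Btg1 and Btg2 fell by 1.12 and 0.90, the stress gene Gadd45b by 1.06 (SE 0.16, limma adjusted p = 0.00159) and Ccng2, a cyclin linked to cell cycle arrest, by 0.47. Btg2 was called in 14 of 21 other fits and Ccng2 in 13. Gadd45b had 11.46, 11.47 and 10.97 in wt-/mt- and 12.24, 12.42 and 12.44 in wt+/mt+, without overlap. Chek1, the checkpoint kinase that inhibits Cdc25 proteins, rose by 1.02, or 0.65 with the mean of all its probe sets. In wt-/mt- against wt+/mt-, where 6.35% of all genes rose and 8.22% fell, 16 of 34 kinetochore genes, 10 of 33 spindle genes and 19 of 38 S phase genes rose. So did 4 of 20 condensin and cohesin genes, 3 of 15 of the anaphase-promoting complex and 1 of 18 MuvB, DREAM and E2F genes, a share below that of all genes. In these 6 lists 0 fell. The count of called mitotic members in this comparison was lower without array 7 or array 8. Of the kinase and phosphatase regulators 4 rose and 3 fell there, and of the restraining genes 1 rose and 2 fell.

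Markers of the cell type were read beside the set. Of 7 B cell markers tested, 3 fell in wt-/mt- against wt+/mt+, Cd79b by 0.96, Cd22 by 0.84 and Ebf1 by 0.71, and the summed level of the list lay between 77.99 and 83.14 in wt-/mt- and between 82.50 and 83.47 in wt+/mt+. Of 7 myeloid markers on the array 3 were bright enough to test. Cd68, a lysosomal protein of macrophages, rose by 1.93, while the others tested had 0.05 and -0.38 and were not called. The summed level of the 7, which includes those too dim to test, lay between 40.50 and 42.70 in wt-/mt-. It lay between 38.78 and 39.79 in wt+/mt+. Cd68 had 6.67, 9.28 and 8.17 in wt-/mt-, so it was highest on array 11, where most mitotic members were lowest of the genotype. Of the T and NK cell markers 4 of 8 were tested, of the stromal markers 1 of 6 and of the erythroid markers 0 of 3, and 0 were called. The part of these markers in the members' values was not tested.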

How the data were processed

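Total RNA of 12 cell line samples was labelled with biotin for Affymetrix 3' expression arrays, per the labels' protocols. The authors deposited log2 values, 1 per probe set and array. Per the submitters' processing notes they used RMA, without a version. Base 2 is assumed, since RMA usually gives it and the values run from 3.09 to 15.57. RMA normalizes between arrays, so an array-wide shift is mostly gone from these values. Depth does not apply to arrays, and the 3 arrays per genotype limit the precision. Scanner files were not used here.

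Of 45101 probe sets, 34958 were annotated to 1 gene, 932 to several and 9211 to none in the table used. Symbols were checked against RefSeq (GRCm38.p6). Each gene was read from its probe set with the highest mean. Genes were kept when it lay above the array median in at least 3 arrays, which left 11458. Of the 45 members, 31 had several probe sets, and 25 had at least 2 bright ones, which agreed in sign in 22 members for wt-/mt- against wt+/mt+.

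A linear model with a mean for each of the 4 genotypes was fitted to all 12 arrays (limma 3.58.1, lmFit and eBayes, R 4.3.3). Calls used an adjusted p under 0.05 (Benjamini-Hochberg, every kept gene), and SE is limma's. Replicate numbers run from 1 to 12 with none shared between genotypes. Alternatives were another scaling (array medians, quantiles, per chromosome), the mean of all probe sets, no filter, 1 weight per genotype, only the genotypes compared, the actin ratio as a covariate, and leaving out arrays. Simulated data for wt-/mt- against wt+/mt+ were used to see how often such calls are right or wrong. Added changes of size 0.5, 1 and 2 were recovered in 43.3%, 80.3% and 94.8% of cases. There were also 169 false calls among 11458 genes, nearly as many as the genes that were given a change. Noise was drawn separately for each gene, so shifts shared by genes on an array were not simulated. The share of false calls in the real data therefore cannot be read from it. Some calls in this comparison, of members too, may therefore be false. The members and lists were chosen with earlier results of these data known, so no list is independent support. The text names all members, Foxo1, up to 4 called genes per other list by size of change, and the 10 genes most like the members' profile. The markers, Ccng2 and the genes called under alternatives were named beside these.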

Additional observations from a re-analysis of the deposited data

Results flagged for a closer look

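No mitotic member had a called interaction of the losses. Among the genes named beside them, 3 did, meaning that the effect of losing 1 allele differed with the other present or absent (limma). Foxo1 itself had an interaction of -1.71 (SE 0.33, adjusted p = 0.0226). It was no longer called when array 1, 2, 3, 4, 6, 7 or 8 was left out, with the actin ratio as a covariate, or without arrays 7 and 8 together. Ensa had 11.65, 10.74 and 9.99 (log2 level) in wt-/mt-, against 12.49 to 12.76 over the arrays of the other genotypes, and an interaction of -1.80 (SE 0.43, adjusted p = 0.0484), which held in 6 of 20 alternatives. Lats2 had 8.12, 8.05 and 7.87 in wt-/mt- and 8.93, 9.03 and 8.82 in wt+/mt+, with an interaction of -0.88 (SE 0.15, adjusted p = 0.0139), which held in 17 of 20. It was -0.35 and not called with the mean of all its probe sets, and its call also ended without array 3 (-0.83) and without arrays 7 and 8 (-0.90).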

How the results depend on the processing

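No paired analysis was possible because the genotypes share no replicate numbers. The count of called members stayed within 1.5 times of the reported one under all 3 scalings, the mean of all probe sets and no filter, in each comparison. With 1 weight per genotype it was 1 of 45 members in wt-/mt- against wt+/mt+, 0 against wt+/mt-, 1 against wt-/mt+, 4 in wt-/mt+ against wt+/mt- and 10 in the F test. In a fit of only the genotypes compared it was 15, 0, 1 and 2 in the same pairs, and 1 in wt-/mt+ against wt+/mt+. With the actin ratio as a covariate it was 0 in wt-/mt- against wt+/mt- and 8 in the F test. Leaving out 1 array at a time gave 6 to 32 in wt-/mt- against wt+/mt+, 5 to 36 against wt+/mt-, 1 to 11 against wt-/mt+, 0 to 9 in wt-/mt+ against wt+/mt-, 0 to 4 in the interaction, 8 to 34 in the F test, and 0 in the other single losses. The median change of the members in wt-/mt+ against wt+/mt- became 0.20 with the actin ratio as a covariate, and that of the interaction 0.03. Smc1a, called higher in wt-/mt- against wt+/mt+, had -0.25 with the mean of all probe sets. The sign of the members' median also turned without arrays 7 and 8, where array 9 alone stands for wt+/mt-. It turned in wt+/mt- against wt+/mt+ (-0.05, or 0.50 without them) and in the interaction (0.30, or -0.18). The weight was 0.25 for the wt-/mt- arrays and between 1.08 and 2.18 for the others, where the reported fit weights all arrays alike. How much of the change in the counts this accounts for was not tested. Calls over all genes moved between fits too. In wt-/mt- against wt+/mt+, 12.2% of all genes rose in the reported fit and 5.76% without array 2. A count given without a share of all genes therefore does not single out the members. All members lay above the array median on every array, and 3 arrays per genotype limit the precision.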
